A study of Mus musculus with 16 samples.

Results

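The Fc receptors of myeloid cells and the enzymes that act next to them were followed in 9 genes of 21878 mRNAs, chosen by gene symbol as a known pathway, with earlier results of these data in view and with no threshold on their values. They are the ligand-binding Fc gamma receptors Fcgr1, Fcgr2b, Fcgr3 and Fcgr4, the shared signalling chain Fcer1g, the Fc receptor-like gene Fcrls, the kinases Lyn and Syk and the phosphatase Ptpn6. All 9 were detected in all 16 libraries, and all passed the filter of a total of at least 16 counts that left 17885 mRNAs for testing. The study compared brain microglia of 8 mice with experimental autoimmune encephalomyelitis (EAE), a model of multiple sclerosis, with those of 8 control mice that received PBS. Every mouse was a wild-type female C57BL/6 mouse of 8 weeks. EAE mice were immunized with the MOG35-55 peptide of myelin oligodendrocyte glycoprotein in complete Freund's adjuvant with pertussis toxin, and brains were taken at the peak of disease. The methods name this peptide for the whole EAE group. In the treatment field of the labels, the last residue instead rises with the replicate number, from 55 in EAE 1 to 62 in EAE 8. The peptide of the methods is given here. Cells were gated on the surface protein CD11b and an intermediate level of CD45, a gate set by protein and not by the genes described here. Libraries are named EAE 1 to EAE 8 and PBS 1 to PBS 8, with 24587443 to 34184576 counts in each.

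Fc receptors bind the constant part of antibodies and so link antibody-coated targets to phagocytosis and to the release of inflammatory mediators by microglia and other myeloid cells. The activating receptors encoded by Fcgr1, Fcgr3 and Fcgr4 lack a signalling motif of their own in the mouse and depend on the Fcer1g chain, whose tyrosines are phosphorylated by Src family kinases such as Lyn and then bind Syk. Fcgr2b carries an inhibitory motif instead and recruits phosphatases that oppose this signal. Ptpn6 encodes SHP-1, a tyrosine phosphatase bound by many inhibitory receptors, and Lyn can phosphorylate activating and inhibitory motifs alike. Fcrls is related to the Fc receptors by sequence and is used as a marker gene of microglia.

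The following sequences are shown because they carry the division into activating and inhibitory receptors and the close likeness of 2 members. All were read from GENCODE transcripts on GRCm38, the build of the alignment. Fcer1g lies at chr1:171229572-171234365 on the minus strand. Codons 65 to 79 of its 86 codons hold the activation motif, 2 tyrosine codons each followed 3 codons later by a leucine codon, with these 4 codons in capitals. The stretch spans chr1:171230067-171230072 in exon 4 and chr1:171229889-171229927 in exon 5, both coding.
Fcer1g activation motif: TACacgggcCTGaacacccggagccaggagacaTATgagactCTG
Fcgr2b lies at chr1:170958617-170976547 on the minus strand. Codons 317 to 322 of its 340 codons, at chr1:170961071-170961088 in exon 8 of 8, hold the inhibition motif, with the tyrosine codon in capitals.
Fcgr2b inhibition motif: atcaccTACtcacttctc
The activation pattern was found in 2.85% of the 21562 coding genes searched and in no other member. The shorter inhibition pattern was found in 41.2% of them, among them Fcgr1, Fcgr4, Fcer1g and Lyn, so a match describes letters and not a working site.

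Fcgr2b and Fcgr3, at chr1:171051174-171064935 on the same strand, encode receptors of opposite effect with nearly the same outer part. Over the 509 coding bases that aligned, 491 were identical, or 96.5%, and the longest identical run was 129 bases. The stretch of 120 aligned bases with the most differences, in exon 3 of each gene, is shown with its 11 differing bases in capitals. It lies at chr1:170968109-170968228 in Fcgr2b, coding bases 131 to 250, and at chr1:171057820-171057939 in Fcgr3, coding bases 116 to 235.
Fcgr2b exon 3: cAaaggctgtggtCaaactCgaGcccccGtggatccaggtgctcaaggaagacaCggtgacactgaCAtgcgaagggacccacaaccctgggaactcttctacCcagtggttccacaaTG
Fcgr3 exon 3: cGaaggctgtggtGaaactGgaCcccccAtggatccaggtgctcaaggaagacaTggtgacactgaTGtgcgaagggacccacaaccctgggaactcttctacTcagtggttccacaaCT
Of the stretches of 100 bases in the Fcgr3 transcript, 44 of 1248 (3.53%) also occurred in Fcgr2b, and 122 of 3445 stretches of Fcgr2b (3.54%) occurred in Fcgr3 or another gene. A read that lies wholly within a shared stretch cannot be assigned to 1 gene. The study sequenced pairs of reads longer than 100 bases and longer than the run of 129 bases. How many reads could not be assigned was not tested. For Lyn, 321 of 3288 stretches (9.76%) were shared with Gm11787, and the other 6 members shared none.

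Fcgr2b, Fcgr4, Fcgr3 and Fcer1g lie together within 275.7 kb of chromosome 1, with Fcgr4 at chr1:171018920-171029761 on the plus strand. Fcrls (chr3:87250758-87263738, minus strand) and Fcgr1 (chr3:96282909-96293969, minus strand) are both on chromosome 3. Lyn is at chr4:3678115-3813122 on the plus strand, Ptpn6 at chr6:124720707-124738714 on the minus strand and Syk at chr13:52583173-52648792 on the plus strand. Fcgr2b and Ptpn6 each overlap an antisense gene and Lyn overlaps 4 genes on the opposite strand. The libraries were stranded, but the strand setting of the counting was not given in the sources used here.

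The label microglia was checked against marker lists, each given as a mean FPKM per library (fragments per kilobase scaled to the mapped reads of the library, a level per length). The 17 microglia markers averaged 15.3–24.7 in EAE and 14.4–23.3 in PBS libraries, all 17 were tested and 0 had an adjusted p under 0.05 in edgeR's quasi-likelihood test or in DESeq2, while 1 had an unadjusted p under 0.05. Markers of neurons (98.3–125), astrocytes (120–183) and oligodendrocytes (94.5–133) stood above the microglia list in every library. Of these, the neuronal genes Gad1 and Syt1 were lower and the astrocyte gene Gfap was higher in EAE mice at an adjusted p under 0.05 in edgeR's quasi-likelihood test. Gfap went against most of its list. Of the 10 astrocyte markers, 8 had a log2FC below 0, with a median of −0.21, and 6 were lower at an unadjusted p under 0.05 in edgeR. Of the 12 neuronal markers, 11 had a log2FC below 0. Endothelial markers were at 8.96–14.1 with 0 calls in edgeR or DESeq2 and 0 at an unadjusted p under 0.05. The 17 neutrophil markers were at 3.29–6.29 in EAE and 1.43–3.60 in PBS libraries. At an adjusted p under 0.05 in edgeR 5 were higher, S100a8, S100a9, Ngp, Ltf and Wfdc21, against 0.66% of all mRNAs. Wfdc21 reached at most 13 counts in any library. DESeq2 also called 5 as higher, with Camp in place of Wfdc21, and gave no adjusted p for 4 of the list. Monocyte markers (2.71–3.16 against 2.53–3.12) and markers of border-associated macrophages (1.078–1.878 against 1.03–1.52) overlapped between the groups. Lists for B cells, T and NK cells and mast cells stayed under 0.55. No marker found in the table was at 0 in every library. The part of other cells in the values of the Fc receptor genes and of the other pathway genes was not tested. The libraries were also not equally alike. Between EAE 6, 7 and 8, and between PBS 5, 7 and 8, the median squared difference was 3.07 to 4.09 times that of Poisson counting noise. For all other pairs within a group this ratio of squares was 6.29 to 26.4. No batch is named in the labels, and results are therefore also given for these 6 libraries and for the other 10.

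None of the 9 members was a DEmRNA in EAE mice, at an adjusted p under 0.05 and a |log2FC| over 1, and 0 had an adjusted p under 0.05 at any fold in edgeR's quasi-likelihood test. Among all mRNAs tested, 0.117% were DEmRNAs and 2.42% had an adjusted p under 0.05. At an unadjusted p under 0.05 there were 3 of 9, Lyn, Fcrls and Ptpn6, all higher in EAE mice, against 7.92% of all mRNAs that were higher at this threshold. No member was lower at this unadjusted threshold in edgeR, against 9.52% of all mRNAs. DESeq2 called 1 of 9 at an adjusted p under 0.05, Lyn, where it called 5.03% of all mRNAs. Of the 9 log2FC values, 6 were above 0 and 3 below, from −0.15 for Fcgr2b to 0.45 for Fcrls. In bulk libraries a difference in the number of cells of a type and a difference in RNA per cell cannot be told apart. FPKM, given below for each member, does not hold the TMM scaling used in edgeR. The TMM factors were 1.005–1.032 in EAE and 0.960–0.997 in PBS libraries, without overlap. At an unadjusted p under 0.05, limma on log2(FPKM + 1) found 2525 of all mRNAs higher and 900 lower in EAE mice. In edgeR 1416 were higher and 1702 lower. Differences in FPKM thus tended to lie higher than those of edgeR.

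**Figure D1:**
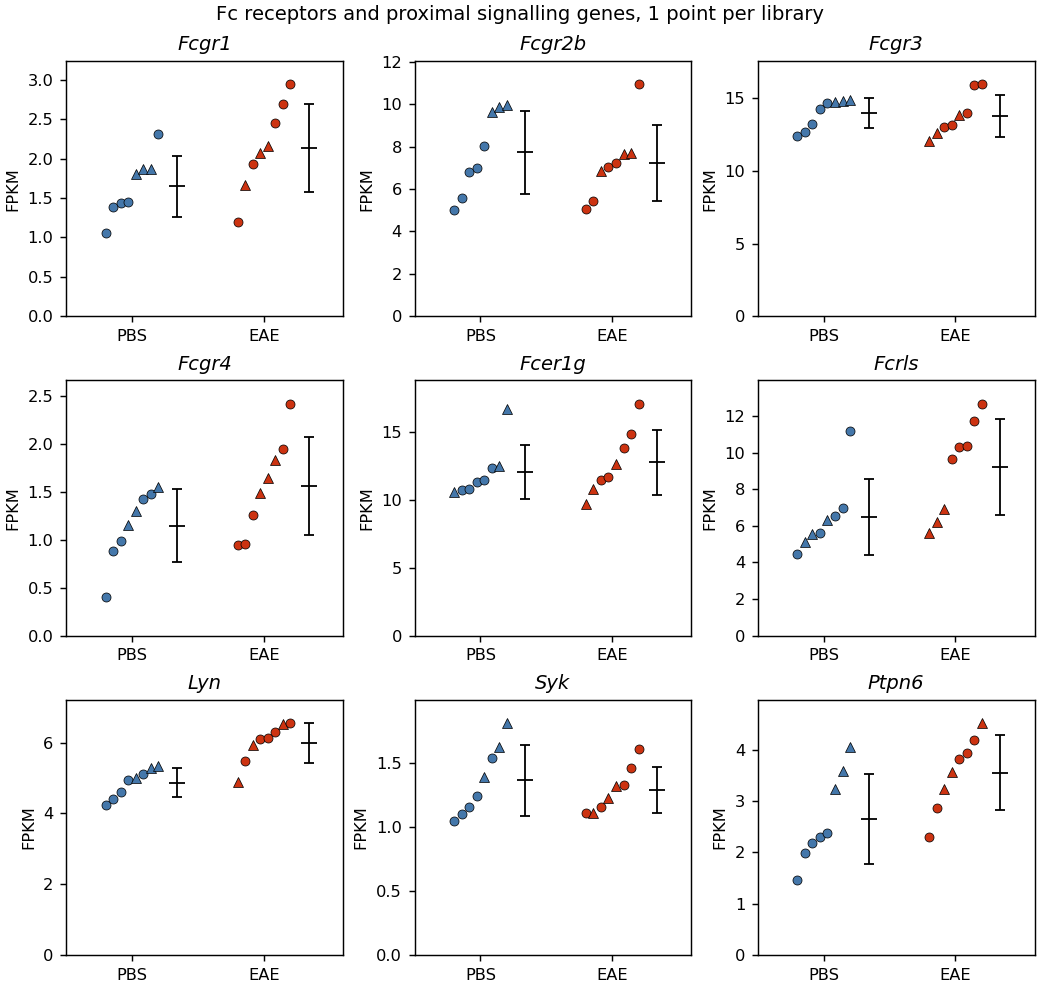
FPKM (y axis, linear, from 0) of each of the 9 members in every library of PBS-treated and EAE mice, with 1 point per library, triangles for EAE 6, 7 and 8 and PBS 5, 7 and 8, and a bar for the mean ± SD (n = 8). The ranges of the groups overlap for every member, and Lyn shows the least overlap, with 7 of 8 EAE libraries above all PBS libraries.

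Fcgr3, an activating receptor of low affinity, had the highest level of the members, with 13.9 FPKM over the 16 libraries. In EAE mice it ranged from 12.02 to 15.96 with a median of 13.5 FPKM, and in PBS-treated mice from 12.4 to 14.9 with a median of 14.5 FPKM. The EAE range enclosed the PBS range on both sides. The means were 13.8 ± 1.45 and 14.0 ± 1.03 FPKM (SD, n = 8), with a log2FC of −0.07 (95% confidence interval −0.21 to 0.07, adjusted p = 0.648 in edgeR's quasi-likelihood test). This interval is the narrowest of the receptors and leaves out changes as large as those estimated for Fcgr1 or Fcgr4.

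Fcgr1 encodes the receptor that binds monomeric IgG with high affinity. Its FPKM ranged from 1.20 (EAE 5) to 2.94 (EAE 4) in EAE mice with a median of 2.11, and from 1.05 (PBS 6) to 2.31 (PBS 4) in PBS-treated mice with a median of 1.63. Library 4 was the highest in both groups, and the ranges overlapped over most of their length. The means of 2.14 ± 0.562 and 1.65 ± 0.390 FPKM (SD, n = 8) gave a log2FC of 0.32 (SE 0.17, adjusted p = 0.344 in edgeR's quasi-likelihood test). In a two-sided exact permutation test of FPKM, p was 0.0628, and it was 0.0138 without EAE 5, the lowest EAE library, and 0.0305 without PBS 4, both in the exact permutation test. It stayed above 0.05 in 14 of 17 repeats, up to 0.123 without EAE 4 in the exact permutation test.

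Fcgr4, an activating receptor for some IgG subclasses, was one of the lowest members, with 14 to 80 counts per library. FPKM was 0.944 to 2.42 with a median of 1.56 in EAE mice, and 0.402 to 1.54 with a median of 1.22 in PBS-treated mice. EAE 1, 4, 6 and 7 were above all PBS libraries, and PBS 6 was below all other libraries. The log2FC was 0.39 (95% confidence interval −0.13 to 0.90, adjusted p = 0.451 in edgeR's quasi-likelihood test), and without PBS 6 it was 0.26. In terms of fold, the interval reached from 0.914 to 1.87, so that no change and a clear increase were both within it at these counts.

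Fcgr2b, the inhibitory receptor, had 7.24 ± 1.79 FPKM (SD, n = 8) in EAE and 7.74 ± 1.96 FPKM in PBS-treated mice. The EAE libraries ranged from 5.05 to 10.9 with a median of 7.12, and the PBS libraries from 5.03 to 9.98 with a median of 7.52. Within the PBS group, PBS 5, 7 and 8 were the 3 highest libraries, at 9.65, 9.98 and 9.87 FPKM, and the other 5 did not exceed 8.02. The highest EAE library was EAE 2, at 10.9 FPKM, and no other exceeded 7.71. The log2FC was −0.15 (95% confidence interval −0.47 to 0.17, adjusted p = 0.669 in edgeR's quasi-likelihood test).

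Fcer1g, the chain that couples the activating receptors to Syk, was second in level, with 12.8 ± 2.40 FPKM (SD, n = 8) in EAE and 12.1 ± 2.02 FPKM in PBS-treated mice. EAE libraries spanned 9.73 to 17.1 FPKM and PBS libraries 10.6 to 16.7 FPKM, with medians of 12.2 and 11.4. Its log2FC was 0.03 (95% confidence interval −0.22 to 0.28, adjusted p = 0.929 in edgeR's quasi-likelihood test). The sign of this value was not stable: it was −0.12 when the libraries were scaled to the microglia markers and −0.038 without EAE 3, the highest library. Under that scaling the median of all mRNAs was −0.13.

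Fcrls ranged from 5.62 to 12.7 FPKM with a median of 9.99 in EAE mice and from 4.45 to 11.2 with a median of 5.97 in PBS-treated mice. EAE 1 to 5 lay between 9.67 and 12.7 FPKM, while EAE 6, 7 and 8 lay at 6.23, 6.93 and 5.62, within the range of the PBS libraries. PBS 4 stood at 11.2 FPKM, and no other PBS library exceeded 6.97. The log2FC was 0.45 (SE 0.18, adjusted p = 0.177 in edgeR's quasi-likelihood test), or 0.62 with an adjusted p of 0.0286 in the same edgeR test without PBS 4. In the exact permutation test of FPKM p was 0.0441, and it was above 0.05 in 12 of the 17 repeats that left out 1 library or used log2(FPKM + 1).

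Fcrls followed the microglia markers more closely than any other member. Its Pearson r with their mean log2 CPM was 0.83 over the 16 libraries, which share library preparation and the scaling to total counts, and 0.95 within the 8 EAE and 0.70 within the 8 PBS libraries. The microglia list was at 21.4–24.7 FPKM in EAE 1 to 5, at 15.3–17.0 FPKM in EAE 6 to 8 and at 23.3 FPKM in PBS 4, the same division of libraries as in Fcrls. For the other members this r was −0.34 (Fcgr2b) to 0.47 (Fcgr1). The neutrophil list was taken as the log2 of its mean FPKM per library, in which its most abundant genes weigh most. With it Fcrls had an r of −0.76 within the EAE and −0.81 within the PBS libraries. Scaled to the microglia markers, the log2FC of Fcrls was 0.29 (95% confidence interval 0.025 to 0.56, adjusted p = 0.316 in edgeR's quasi-likelihood test), against 0.45 without this scaling. The scaling lowered log2FC values in general: the median of all mRNAs was −0.13 with it and 0.0092 without it.

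Lyn, the Src family kinase that phosphorylates receptor motifs, had the smallest p of the members and ranked 539 of 17885 by p. Its FPKM ranged from 4.88 to 6.55 with a median of 6.11 in EAE mice, and from 4.23 to 5.33 with a median of 4.98 in PBS-treated mice. EAE 8 was the single EAE library within the PBS range, and the other 7 lay between 5.48 and 6.55. The means were 5.99 ± 0.564 and 4.86 ± 0.410 FPKM (SD, n = 8), with p = 0.00140 in the two-sided exact permutation test of FPKM, without TMM scaling. The log2FC was 0.25 (SE 0.07, 95% confidence interval 0.10 to 0.39), and the adjusted p of 0.0630 in edgeR's quasi-likelihood test missed the threshold. It was 0.0203 in DESeq2 and under 0.05 in 2 of the 16 edgeR fits that left out 1 library, with 0.0435 without EAE 4 as the lowest and 0.135 without PBS 2 as the highest. Scaled to the microglia markers, the log2FC was 0.10, with an adjusted p of 0.744 in edgeR, and under this scaling the median of all mRNAs was −0.13. The r of Lyn with the neutrophil list was −0.32 within the EAE and 0.51 within the PBS libraries.

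Syk, which binds the phosphorylated activation motif, was the lowest member in FPKM although its counts were 221 to 453 per library. Its FPKM was 1.11 to 1.62 with a median of 1.28 in EAE mice and 1.05 to 1.82 with a median of 1.32 in PBS-treated mice. The EAE libraries all lay within the PBS range. The log2FC was −0.13 (95% confidence interval −0.36 to 0.10, adjusted p = 0.590 in edgeR's quasi-likelihood test). Leaving out 1 library gave −0.18 to −0.063, the latter without PBS 8, its highest library. Lyn and Syk, which act one after the other on the same motif, thus had estimates of opposite sign, and only that of Lyn had an interval above 0.

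Ptpn6 ranged from 2.30 (EAE 5) to 4.52 (EAE 6) FPKM with a median of 3.69 in EAE mice and from 1.46 (PBS 6) to 4.05 (PBS 5) with a median of 2.34 in PBS-treated mice. PBS 5, 7 and 8 were at 4.05, 3.24 and 3.59 FPKM, within the EAE range, and the other 5 PBS libraries did not exceed 2.37. The means were 3.55 ± 0.727 and 2.65 ± 0.884 FPKM (SD, n = 8), with p = 0.0444 in the exact permutation test, and this p was above 0.05 in 10 of 17 repeats. The log2FC was 0.37 (SE 0.18, adjusted p = 0.282 in edgeR's quasi-likelihood test). Of the members, Ptpn6 had the highest r with the neutrophil list over all 16 libraries, 0.69, with 0.55 within the EAE and 0.59 within the PBS libraries. The r over all 16 includes the difference between the groups. Within the PBS libraries Fcgr2b had a higher r, 0.78, and Syk (0.55) and Lyn (0.51) were close to Ptpn6. Within the EAE libraries these 3 were at −0.16, −0.27 and −0.32. The most abundant gene in the mean of this list was Lcn2, at 31.0 FPKM in EAE and 24.1 FPKM in PBS-treated mice. Lcn2 was not called (adjusted p = 0.478 in edgeR's quasi-likelihood test). Neutrophils carry high CD45, and the gate on intermediate CD45 is meant to leave them out. The part of neutrophil RNA in the level of Ptpn6 was not tested.

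**Figure D2:**
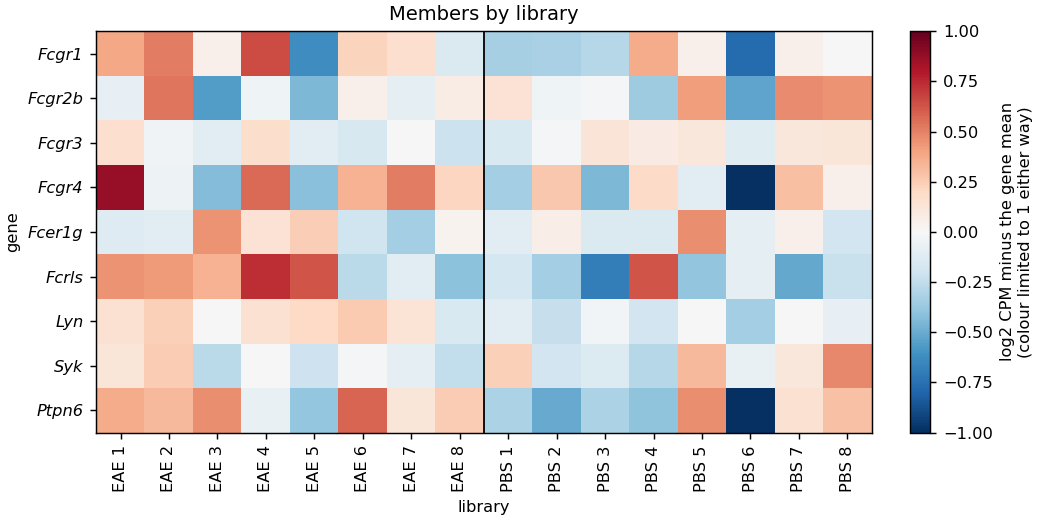
Log2 CPM of each member (rows) in each library (columns) minus the gene's mean over the 16 libraries, in colour from −1 to 1. PBS 6 is the lowest PBS library for Fcgr1, Fcgr2b, Fcgr4, Lyn and Ptpn6 in FPKM, and Fcrls divides EAE 1 to 5 from EAE 6 to 8.

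Set side by side per length, the members fell into an order that was alike in most libraries. Mean FPKM over all 16 libraries was 13.9 for Fcgr3, 12.4 for Fcer1g, 7.84 for Fcrls, 7.49 for Fcgr2b, 5.43 for Lyn, 3.10 for Ptpn6, 1.89 for Fcgr1, 1.35 for Fcgr4 and 1.33 for Syk. Lyn was above Ptpn6 in 16 of 16 libraries, and Fcer1g above Fcrls in 15. Fcgr2b exceeded Lyn in 14, Ptpn6 exceeded Fcgr1 in 14 and Fcgr1 exceeded Fcgr4 in 15 libraries. Fcgr3 was above Fcer1g in 12. Fcrls and Fcgr2b, with Fcrls higher in 7 of 16 libraries, and Fcgr4 and Syk, with Fcgr4 higher in 8 of 16, did not differ beyond their spread. The signalling chain was therefore listed at a level close to that of its most abundant partner and 6.54 times (EAE) or 7.66 times (PBS) that of Fcgr1, as means of the ratio within a library.

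The level of each activating receptor relative to the inhibitory Fcgr2b was taken as a ratio of FPKM within each library and is given without a test. For Fcgr1 to Fcgr2b, the ratio was 0.216 to 0.408 with a median of 0.291 in EAE mice and 0.179 to 0.416 with a median of 0.199 in PBS-treated mice. Apart from PBS 4, at 0.416, all PBS libraries lay below all 8 EAE libraries. For Fcgr4 to Fcgr2b, the mean ratio was 0.2204 ± 0.0706 in EAE and 0.151 ± 0.0577 in PBS-treated mice (SD, n = 8), with 7 of 8 EAE libraries above the PBS median. The ratio of Fcgr3 to Fcgr2b was 1.99 ± 0.460 and 1.90 ± 0.459, a difference far smaller than the spread. Within the 6 libraries most alike, the mean ratio to Fcgr2b in EAE and PBS-treated mice was 1.738 against 1.505 for Fcgr3, 0.266 against 0.188 for Fcgr1 and 0.225 against 0.135 for Fcgr4. In the other 10 libraries it was 2.15 against 2.14, 0.321 against 0.243 and 0.218 against 0.160, in the same order. The mean ratio of Fcgr3 thus differed by less in the other 10 libraries than in the 6, in which the 3 EAE libraries (1.56 to 2.02) lay above the 3 PBS libraries (1.47 to 1.53).

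A pair of further ratios was chosen after the values were seen. Lyn to Syk was 4.06 to 5.44 in EAE mice and 2.76 to 4.41 in PBS-treated mice, and 5 of 8 EAE libraries lay above all PBS libraries. Ptpn6 to Syk was 2.78 ± 0.630 in EAE and 1.92 ± 0.418 in PBS-treated mice (SD, n = 8), again with 5 of 8 EAE libraries above all PBS libraries. For both ratios, the EAE mean was above the PBS mean in the 6 libraries most alike, at 4.72 against 3.27 and 3.08 against 2.26, and in the other 10, at 4.64 against 3.88 and 2.59 against 1.72.

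**Figure D3:**
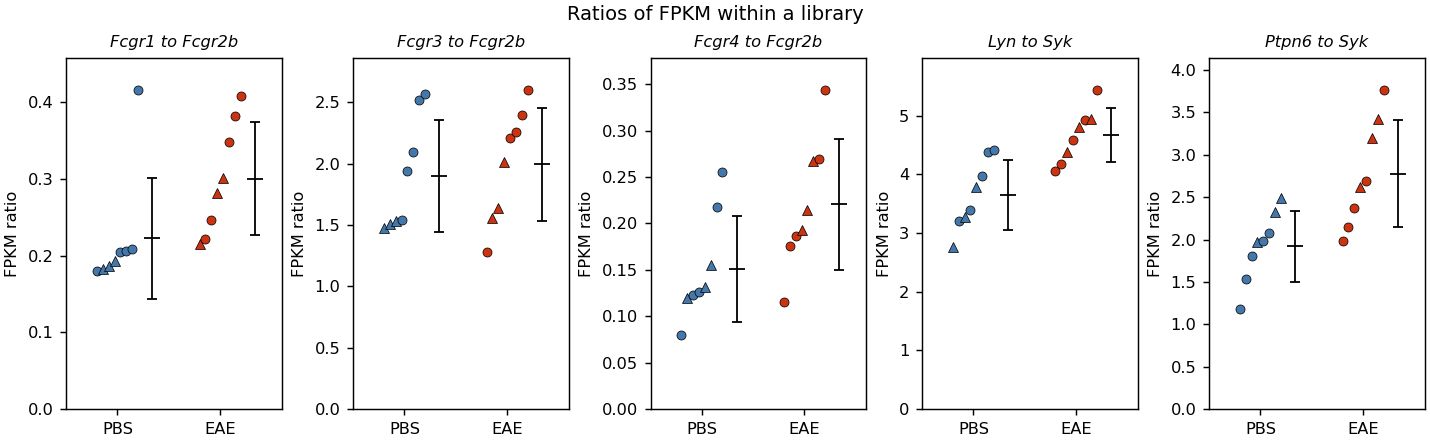
Ratios of FPKM within each library (y axes, linear, from 0) for Fcgr1, Fcgr3 and Fcgr4 to Fcgr2b and for Lyn and Ptpn6 to Syk, with 1 point per library, triangles for EAE 6, 7 and 8 and PBS 5, 7 and 8, and the mean ± SD (n = 8). All EAE libraries lie above the PBS median for Fcgr1 to Fcgr2b, and the ratio of Fcgr3 to Fcgr2b has means of 1.99 and 1.90 over all libraries.

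The difference between EAE and PBS-treated mice was also estimated within each of the sets of libraries. The 6 libraries were picked for their small spread within each group, which tends to make p-values within them too small. Within EAE 6, 7 and 8 and PBS 5, 7 and 8, edgeR's quasi-likelihood test called 3 of 9 members, all lower in EAE mice, where 12.6% of all mRNAs were called lower and 23.2% were called in either direction. Fcgr2b had a log2FC of −0.44 with an adjusted p of 0.00130, Syk had −0.43 with 0.00648 and Fcgr3 had −0.24 with 0.0154, all in this edgeR fit. Fcer1g stood at −0.30 (adjusted p = 0.160 in the same edgeR fit). Fcgr1, Fcgr4, Fcrls, Lyn and Ptpn6 were between 0.03 and 0.28 there, without a call among these 5.

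In the remaining 5 EAE and 5 PBS libraries, all 9 members had a log2FC above 0, and 0 were called by edgeR, where 0.0895% of all mRNAs were called. Ptpn6 (0.66), Fcrls (0.59) and Lyn (0.32) had an unadjusted p under 0.05, a threshold that 4.15% of all mRNAs passed as higher in these libraries. The log2FC was 0.48 for Fcgr1, 0.46 for Fcgr4, 0.22 for Fcer1g, 0.07 for Fcgr2b, 0.03 for Fcgr3 and 0.06 for Syk. The difference between the sets was itself tested as an interaction in edgeR over all 16 libraries. All 9 estimates were below 0, from −0.64 for Ptpn6 to −0.18 for Fcgr4, and 0 had an adjusted p under 0.05 (0.551 to 0.954 in edgeR), where 0.0615% of all mRNAs had one. At an unadjusted p under 0.05 there were 4 of 9, Syk, Ptpn6, Fcer1g and Fcgr3, where 8.03% of all mRNAs passed. The sets were therefore not shown to differ for any member. The calls of Fcgr2b, Fcgr3 and Syk thus rest on 6 libraries, which were picked for their likeness from earlier results of these data. Because of this choice, their adjusted p-values cannot be read as those of a planned test.

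**Figure D4:**
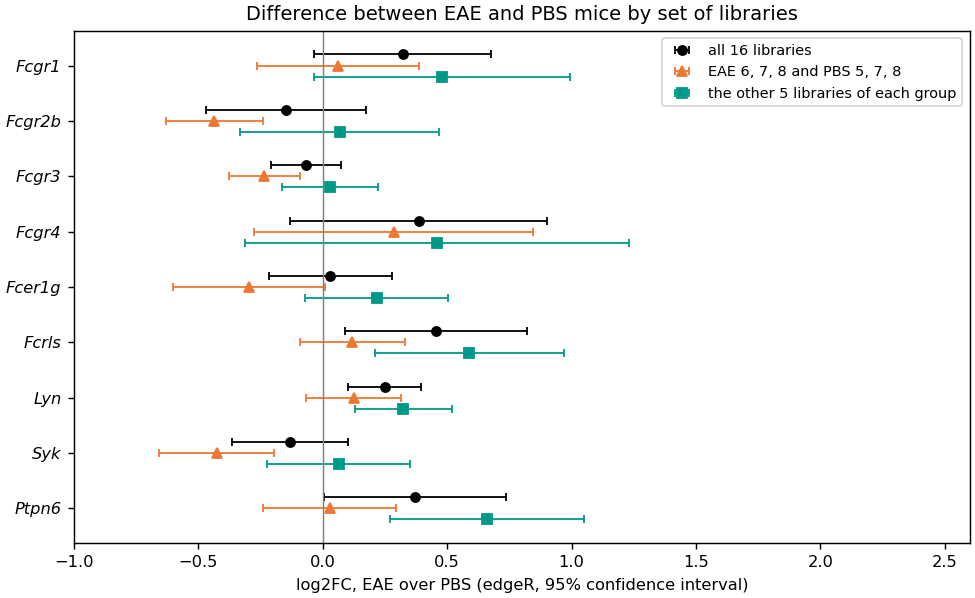
Log2FC of EAE over PBS-treated mice with 95% confidence intervals (x axis) for each member (y axis) from edgeR, over all 16 libraries (circles), over EAE 6, 7 and 8 and PBS 5, 7 and 8 (triangles) and over the other 5 libraries of each group (squares). Every triangle lies to the left of the square of the same gene, and the intervals of Fcgr2b, Fcgr3 and Syk lie below 0 in the 6 libraries only. These 6 were picked for their small spread, which tends to make their intervals too narrow.

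Across the 16 libraries, members differed in which of them moved together, described here by Pearson's r of log2 CPM, which share the scaling of each library. The highest r was that of Fcgr2b with Syk (0.77), followed by Fcgr1 with Fcgr4 (0.74), Fcgr1 with Ptpn6 (0.62) and Lyn with Ptpn6 (0.61). Fcgr2b and Fcrls had the lowest, −0.43. Fcer1g had an r between −0.19 and 0.23 with the 4 receptors, Fcrls, the kinases, Ptpn6 and the microglia list. Fcgr2b and Fcgr3, the most alike in sequence, had an r of 0.31.

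For each member the 2 mRNAs of most similar pattern were sought among 12853 mRNAs with a mean of at least 100 counts, by Pearson's r of log2 CPM over the 16 libraries. Fcgr1 was most like Cx3cr1 (0.94), the fractalkine receptor of microglia, and Lcp1 (0.90), an actin-bundling protein of leukocytes. For Fcrls, Gusb (0.92), a lysosomal enzyme, was among them. The genes closest to Ptpn6 were Gpr84 (0.94), a receptor for fatty acids of medium chain length, and Csf2rb (0.91), the common beta chain of cytokine receptors. Fcer1g was closest to Mid2 (0.85) and B2m (0.83), the light chain of MHC class I. Fcgr2b was closest to Irs1 (0.95) and Phf20 (0.87), Fcgr3 to Cpsf2 (0.89) and Bloc1s3 (0.87), and Fcgr4 to Fchsd1 (0.84) and Tapbpl (0.81). Lyn was closest to Mapk1ip1l (0.82) and Ptger4 (0.78), and Syk to Kank3 (0.86) and Omp (0.83). None of the 17 mRNAs named here had an adjusted p under 0.05 between the groups in edgeR's quasi-likelihood test.

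Other genes of the pathway were taken from 5 lists with 96 genes, of which 90 were tested. At an adjusted p under 0.05 in edgeR's quasi-likelihood test, 2 rose and 2 fell in EAE mice, against 0.66% and 1.76% of all mRNAs. The median log2FC over the 90 genes was 0.14, and over all mRNAs 0.0092. The calls were Vav1 and Trem2, which were higher, and Sirpa and Pik3r1, which were lower.

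Of the adaptors and effectors downstream of Syk, 25 of 25 were tested, 1 rose and 1 fell, and the median log2FC was 0.11. Vav1, the exchange factor for Rac proteins in blood cells, had 2.90 ± 0.245 FPKM in EAE and 2.09 ± 0.341 FPKM in PBS-treated mice (SD, n = 8). Its log2FC was 0.42 (SE 0.10, adjusted p = 0.0255 in edgeR's quasi-likelihood test), and the adjusted p was under 0.05 in 13 of 16 edgeR fits that left out 1 library, with a highest value of 0.0595 without PBS 2. Pik3r1, a regulatory subunit of PI3 kinase, had a log2FC of −0.16 (adjusted p = 0.0266 in edgeR's quasi-likelihood test), which held in 8 of 16 such fits, with up to 0.0697 without PBS 2. The call of Pik3r1 was also lost with library totals (adjusted p = 0.1102 in edgeR), in limma (0.0860 and 0.0982) and in the other 10 libraries (0.399 in edgeR). Vav1 was called in the 6 libraries most alike (log2FC 0.32), which were picked for their small spread. It was not called in the other 10 (0.48, adjusted p = 0.145 in edgeR). Rac1 and Plcg1, the most abundant of the list, had a log2FC of −0.11 and 0.0037, and neither was called.

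The list of other Src, Syk and Tec family kinases held 13 genes, among them the regulators Csk and Pag1. Of these 13, 0 were called in edgeR's quasi-likelihood test, 1 had an unadjusted p under 0.05, and DESeq2 called 0. Lck, best known from T cells, was at 0.991 and 0.738 FPKM. Src and Fyn, at 34.9 against 36.2 and 20.9 against 20.7 FPKM, were the most abundant and had a log2FC of −0.10 and −0.04.

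The list of inhibitory phosphatases and receptors with the inhibition motif also held the adaptors Dok1, Dok2 and Dok3. It had 20 tested genes, of which 0 rose and 1 fell, with a median log2FC of 0.07. Sirpa, which binds CD47 and recruits SHP phosphatases, had 85.4 ± 7.04 FPKM in EAE and 94.6 ± 5.48 FPKM in PBS-treated mice (SD, n = 8). Its log2FC was −0.20 (adjusted p = 0.0446 in edgeR's quasi-likelihood test), but the adjusted p was under 0.05 in only 4 of 16 edgeR fits that left out 1 library, and 0.105 without PBS 2. It was also lost with library totals (0.114 in edgeR), in limma (0.119 and 0.121) and in the other 10 libraries (0.272 in edgeR). Ptpn11, which encodes SHP-2, the relative of SHP-1, had 49.2 and 52.2 FPKM and a log2FC of −0.13 (adjusted p = 0.175 in edgeR's quasi-likelihood test). Ptpn6 was much lower in level in these libraries, and its estimate had the opposite sign. Markers of neurons, astrocytes and oligodendrocytes stood above those of microglia, and the part of such cells in either gene was not tested.

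Among other adaptors with the activation motif and the receptors coupled to them, 20 genes were tested, of which 1 rose and 0 fell, with a median log2FC of 0.20. Trem2, a lipid-sensing receptor of microglia, had 9.13 ± 2.25 FPKM in EAE and 5.97 ± 0.854 FPKM in PBS-treated mice (SD, n = 8), with a log2FC of 0.56 (adjusted p = 0.0282 in edgeR's quasi-likelihood test). This held in 11 of 16 edgeR fits that left out 1 library, with up to 0.0632 without EAE 2. Trem2 was called in neither set of libraries, with a log2FC of 0.33 (adjusted p = 0.0753 in edgeR) in the 6 and 0.67 (0.111 in edgeR) in the other 10. Tyrobp, its adaptor, had 21.1 ± 3.13 and 17.9 ± 2.83 FPKM (SD, n = 8) and a log2FC of 0.19 (adjusted p = 0.382 in edgeR's quasi-likelihood test). Tyrobp was thus above Fcer1g in mean level in both groups. When the libraries were scaled to the microglia markers, none of the 4 called genes of the pathway was called, where 5 of all mRNAs were. Their log2FC values were then 0.40 for Trem2, 0.28 for Vav1, −0.31 for Pik3r1 and −0.34 for Sirpa, beside a median of −0.13 over all mRNAs.

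The list of other Fc and Fc-like receptors held 12 tested genes, of which 0 were called in edgeR's quasi-likelihood test and 1 had an unadjusted p under 0.05, with a median log2FC of 0.49 on low counts. DESeq2 called 0 of these and gave no adjusted p for 5. Fcgrt, the neonatal Fc receptor that recycles IgG, was the most abundant, at 4.93 ± 0.906 FPKM in EAE and 4.37 ± 0.617 FPKM in PBS-treated mice (SD, n = 8). Fcer2a, the low-affinity IgE receptor of B cells, was at 1.77 and 1.33 FPKM. Ms4a2, the beta chain of the IgE receptor of mast cells, reached at most 10 counts in any library, and Fcrl1, a B cell gene, 19. Fcrl5 was at 0 in every library.

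**Figure D5:**
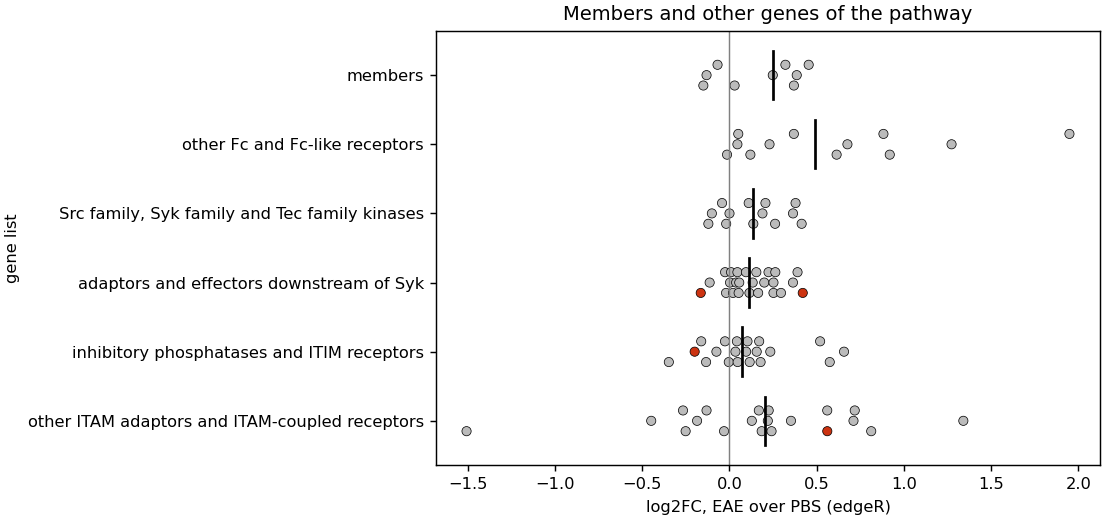
Log2FC of EAE over PBS-treated mice (x axis, edgeR) of each tested gene of the members and of the 5 pathway lists (y axis), with a vertical bar at the median of the list and red points for an adjusted p under 0.05. The 4 red points are Vav1 and Trem2 to the right of 0 and Pik3r1 and Sirpa to the left.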

How the data were processed

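The authors aligned reads of stranded, ribosome-depleted RNA libraries to GRCm38 with HISAT2 2.1.0 and counted them with HTSeq 0.11.2, as named in their text and the submitters' processing notes. They deposited raw counts and FPKM values for 21878 mRNAs in 16 libraries. Groups were taken from the labels, 8 EAE and 8 PBS. Here the counts were tested with edgeR's quasi-likelihood test (edgeR 4.0.16, R 4.3.3) after TMM scaling, with condition as the only term, for the 17885 mRNAs with at least 16 counts in all, and p-values were adjusted over all of these by Benjamini-Hochberg. A DEmRNA had an adjusted p under 0.05 and a |log2FC| over 1, as the methods set. FPKM of single members was compared with a two-sided exact permutation test over all divisions of 8 against 8, whose smallest p is 0.000155. FPKM was used as deposited, without TMM scaling. Alternatives used DESeq2 1.42.0 and limma 3.58.1, on log2(FPKM + 1) and log2(FPKM + 0.1). The edgeR procedure was tested on simulated data. Libraries held 24587443 to 34184576 counts. Each library is from 1 mouse, and reads carry no molecular identifiers. The most similar pair of libraries within a group had a median squared difference of 3.07 times that of counting noise. Pairs between the groups were not compared in this way. All 16 were counted as separate samples. Gene positions, exons and transcript sequences came from the GENCODE annotation of GRCm38.

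The members and gene lists were chosen with earlier results of these data known. Named were all 9 members. From each pathway list these were any gene with an adjusted p under 0.05, otherwise the 2 with the smallest p. The 2 of highest mean FPKM in each pathway list were added. From each cell type list the rule named the genes with an adjusted p under 0.05 and the 2 of highest mean FPKM. Of these, only the calls and Lcn2 are printed, and Camp is added as a call of DESeq2. For each member the 2 mRNAs of highest r were named. A few results that these rules would name are not reported here. Of the list genes, 90 of 96 in the pathway lists were tested, and 3 of the 96 were not in the table. No protein sequences were used here.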

Additional observations from a re-analysis of the deposited data

Results flagged for a closer look

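Among 18 groups of 8 libraries, 1 for each member and condition, 3 held a library whose gap to its nearest neighbour was larger than Dixon's 95% critical value. Chance alone gives about 1 in 20 groups. Fcgr2b was 10.9 FPKM in EAE 2 and at most 7.71 in the other EAE libraries. Fcer1g was 16.7 FPKM in PBS 5 and at most 12.5 in the other PBS libraries. Fcrls was 11.2 FPKM in PBS 4 and at most 6.97 in the other PBS libraries. Without EAE 2, the log2FC of Fcgr2b was −0.26, without PBS 5 that of Fcer1g was 0.11, and without PBS 4 that of Fcrls was 0.62.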

How the results depend on the processing

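In edgeR's quasi-likelihood test 21 DEmRNAs, 433 mRNAs with an adjusted p under 0.05 and 0 of 9 members were called. Counts in this order were 21, 329 and 1 with library totals, 4, 5 and 0 scaled to the microglia markers, 26, 899 and 1 in DESeq2, 5, 237 and 1 in limma on log2(FPKM + 1), and 15, 205 and 1 in limma on log2(FPKM + 0.1). They were 181, 4152 and 3 in the 6 libraries most alike, 6, 16 and 0 in the other 10, and 38, 768 and 1 with a term for the sets. Without EAE 4 and PBS 4 together, chosen after seeing the data, they were 44, 1306 and 1. Leaving out 1 library gave 12–49 DEmRNAs, 143–1312 adjusted calls and 0–1 members. The single member called was Lyn, except without PBS 4, and without EAE 4 and PBS 4 together, where it was Fcrls.

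The replicate numbers shared by the groups did not pair most of the libraries: r of their deviations was −0.272 to 0.621. Of the EAE libraries, 2 of 8 were closest to their own number, EAE 4 (0.62) and EAE 8 (0.37). With the replicate number as a replicate block, edgeR called 16 DEmRNAs, 517 mRNAs and 0 members. The adjusted p of Pik3r1 was 0.0545 in this edgeR fit, and Vav1, Trem2 and Sirpa stayed under 0.05.

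The log2FC of Fcer1g turned to −0.12 under microglia scaling, where the median of all mRNAs was −0.13. It was −0.038 without EAE 3 and −0.0047 without EAE 5 (−0.038 to 0.11 over the fits without 1 library), −0.30 in the 6 libraries and −0.0078 without EAE 4 and PBS 4. In the other 10 libraries Fcgr2b (0.067), Fcgr3 (0.028) and Syk (0.064) turned above 0. The FPKM difference of Fcgr3 was 0.0185 without EAE 6 and 0.0975 without EAE 8, and ranged from −0.465 to 0.0975 without 1 library. Fcgr1, Fcgr4, Fcrls, Lyn and Ptpn6 kept a log2FC above 0 in all 31 fits. The causes were not tested. Depth limits Fcgr4 most, with 14 to 80 counts.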
